A study of Mus musculus with 6 samples.

Results

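The cytosolic ribosomal protein genes described here were the protein-coding genes of the deposited count table whose mouse symbol was Rpl or Rps followed by a number, without the Rps6k kinases, together with Rplp0, Rplp1, Rplp2 and Rpsa. A summed count of 30 or more over the 6 libraries was required. The symbol rule found 92 genes and the count minimum kept 86 of the 35275 genes in the table. The 6 genes below the minimum were Rpl10-ps3 with 21 counts, Rpl39l and Rpl36a-ps1 with 7 counts each, and Rpl10l, Rpl9-ps1 and Rpl36-ps4 with 0 of 145510537 counts, which allows up to 0.0206 CPM (counts scaled to a library of 1000000). The members nearest the minimum from above were Rpl24 with 51 counts and Rps12-ps3 with 62. All 86 members passed the expression filter of the test across 16137 genes. Of the members, 46 encode core proteins of the large subunit, 31 encode core proteins of the small subunit, and 9 are paralogs, processed copies or products that are not ribosomal proteins.

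The series measured polyadenylated RNA of the whole adult spinal cord from C57BL/6 mice, 1 library per animal. The 3 Sox2 cKO mice carried mGfap-Cre with Sox2fl/fl, a transgene that drives Cre in astrocytes, so the tissue also holds cells in which Sox2 was not targeted. The 3 Ctrl mice are labelled mGfap-Cre:Sox2+/+, whereas the series design gives them as carrying mGfap-Cre or Sox2fl/fl and the methods describe Sox2fl/fl littermates, so whether they carried Cre is not settled. Age is given as postnatal day 90 in one label and as day 80 in the series design. The labels state an RNA integrity number above 6.8 for all samples, and the stated minimum differs between sources. Libraries are named here by the number that ends their column, 2, 4 and 6 for Ctrl and 1, 3 and 5 for Sox2 cKO, and held 21507911 to 28392184 counts. The question was whether these genes differed between Sox2 cKO and Ctrl spinal cord, singly and by subunit.

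The ribosome consists of a small subunit that reads the messenger RNA and a large subunit that joins amino acids, each built from ribosomal RNA and a set of small basic proteins. Cells need these proteins in near equal amounts, and their mRNAs are among the most abundant and the shortest of the transcriptome. Most of these mRNAs start with a run of C and T, the terminal oligopyrimidine tract, through which their translation follows mTORC1 activity.

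Promoter sequences around the start site are shown for 6 members named in the results below. RefSeq promoters of build GRCm38.p6 were found for 64 of the 86 members. A run of 5 or more C or T that began with C at the annotated start was present at the start of 14 of these 64 members (21.9%), or 18.4% of their 76 promoter entries, against 2.51% of all 32851 entries. The letters CCGGAAG, the core bound by ETS family factors, were found on either strand within 300 bases in 25 of the 64 members (39.1%), or 34.2% of the entries against 8.86% of all entries. The SOX family cores ACAATG or ACAAAG, on either strand, were found in 13 members (20.3%), or 21.1% of the entries against 28.6% of all entries. The median log2 fold change was 0.30 for the 14 members with the run and 0.19 for the other 50, and both medians come from the scaling whose direction a length correction turned, as given below. The windows run from 45 bases before to 15 bases after the annotated start, 5′ to 3′ on the strand of the gene, and capitals mark the run at the start or the ETS core. Rps27 (chr3:90213634-90213693, minus strand), its retrocopy Rps27rt (chr9:114982725-114982784, minus strand) and Rps21 (chr2:180257334-180257393, plus strand) had a run. Rpl39 (chrX:37085208-37085267, minus strand), Rpl37a (chr1:72711215-72711274, plus strand) and Rpl13a (chr7:45128731-45128790, minus strand) had no such run at the annotated start, which says nothing of other start sites.
Rps27: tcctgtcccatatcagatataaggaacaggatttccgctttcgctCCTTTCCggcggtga
Rps27rt: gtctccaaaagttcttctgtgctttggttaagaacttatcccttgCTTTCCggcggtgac
Rps21: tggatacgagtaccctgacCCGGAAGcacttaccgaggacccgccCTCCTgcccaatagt
Rpl39: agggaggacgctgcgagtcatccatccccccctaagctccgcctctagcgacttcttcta
Rpl37a: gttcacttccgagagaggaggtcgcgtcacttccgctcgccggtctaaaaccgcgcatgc
Rpl13a: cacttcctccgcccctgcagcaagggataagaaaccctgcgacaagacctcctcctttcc

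Sox2, the deleted gene, was checked first against the labels. It was measured at 19.9, 14.8 and 29.5 CPM (library size scaled by TMM factors) in Ctrl libraries 2, 4 and 6 and at 3.16, 2.69 and 2.98 CPM in Sox2 cKO libraries 1, 3 and 5. All 3 Sox2 cKO libraries were below all 3 Ctrl libraries. The log2 fold change was -2.86 ± 0.24 (SE, n = 3 against 3; edgeR adjusted p = 0.000956). Genes of spinal cord segment identity were detected in every library, with a summed level of 417 to 479 CPM over 6 Hox genes, and 5 forebrain genes summed to at most 6.77 CPM in any library.

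Ribosomal protein genes were mostly higher in Sox2 cKO under TMM scaling. Their median log2 fold change turned negative once the trend of each library with gene length was taken out. In the edgeR test, 29 of the 86 members were called higher at an adjusted p below 0.05 (33.7%), beside 12.2% of all genes tested. By the same test 0 members were called lower, beside 12.4% of all genes; 0 were lower at an unadjusted p under 0.05 either, DESeq2 called 0 lower with 2 lower at an unadjusted p under 0.05, and limma called 0. The CPM of all 3 Sox2 cKO libraries lay above all 3 Ctrl libraries for 39 members (45.3%), beside 22.6% of all genes, and below them for 0 members, beside 22.1% of all genes. The median log2 fold change was 0.20 over the members and 0.02 over all genes tested, and 74 members had a positive value. With the length correction, which takes out of each library a smooth curve of counts against gene length, 1 member was called higher (1.16%), beside 6.08% of all genes, and 9 were called lower (10.5%), beside 6.99% of all genes, and the members' median was -0.10. Level in whole tissue combines cell numbers and RNA per cell, so fewer cells of a type and less RNA per cell cannot be told apart.

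The number of calls depended on single libraries. Without Ctrl library 4 edgeR called 0 members in either direction, with 29 higher and 2 lower at an unadjusted p under 0.05, and over all genes it called 13 higher and 13 lower. Without Sox2 cKO library 1 it also called 0 members, with 35 higher and 0 lower at an unadjusted p under 0.05, and over all genes 3 higher and 5 lower. DESeq2, run on all 6 libraries, called 37 members higher, beside 1991 of all 24429 genes it tested. Without Ctrl library 6, Sox2 cKO library 3 or Sox2 cKO library 5, edgeR called 17, 14 and 18 members higher, and over all genes 602, 698 and 1329 higher. Without Ctrl library 2 it called 35 members higher and 2 lower, Rpl13a and Rpl3, and over all 16590 genes 3030 higher and 3089 lower. The members' median was positive in each of these 6 fits, from 0.15 to 0.25.

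**Figure D1:**
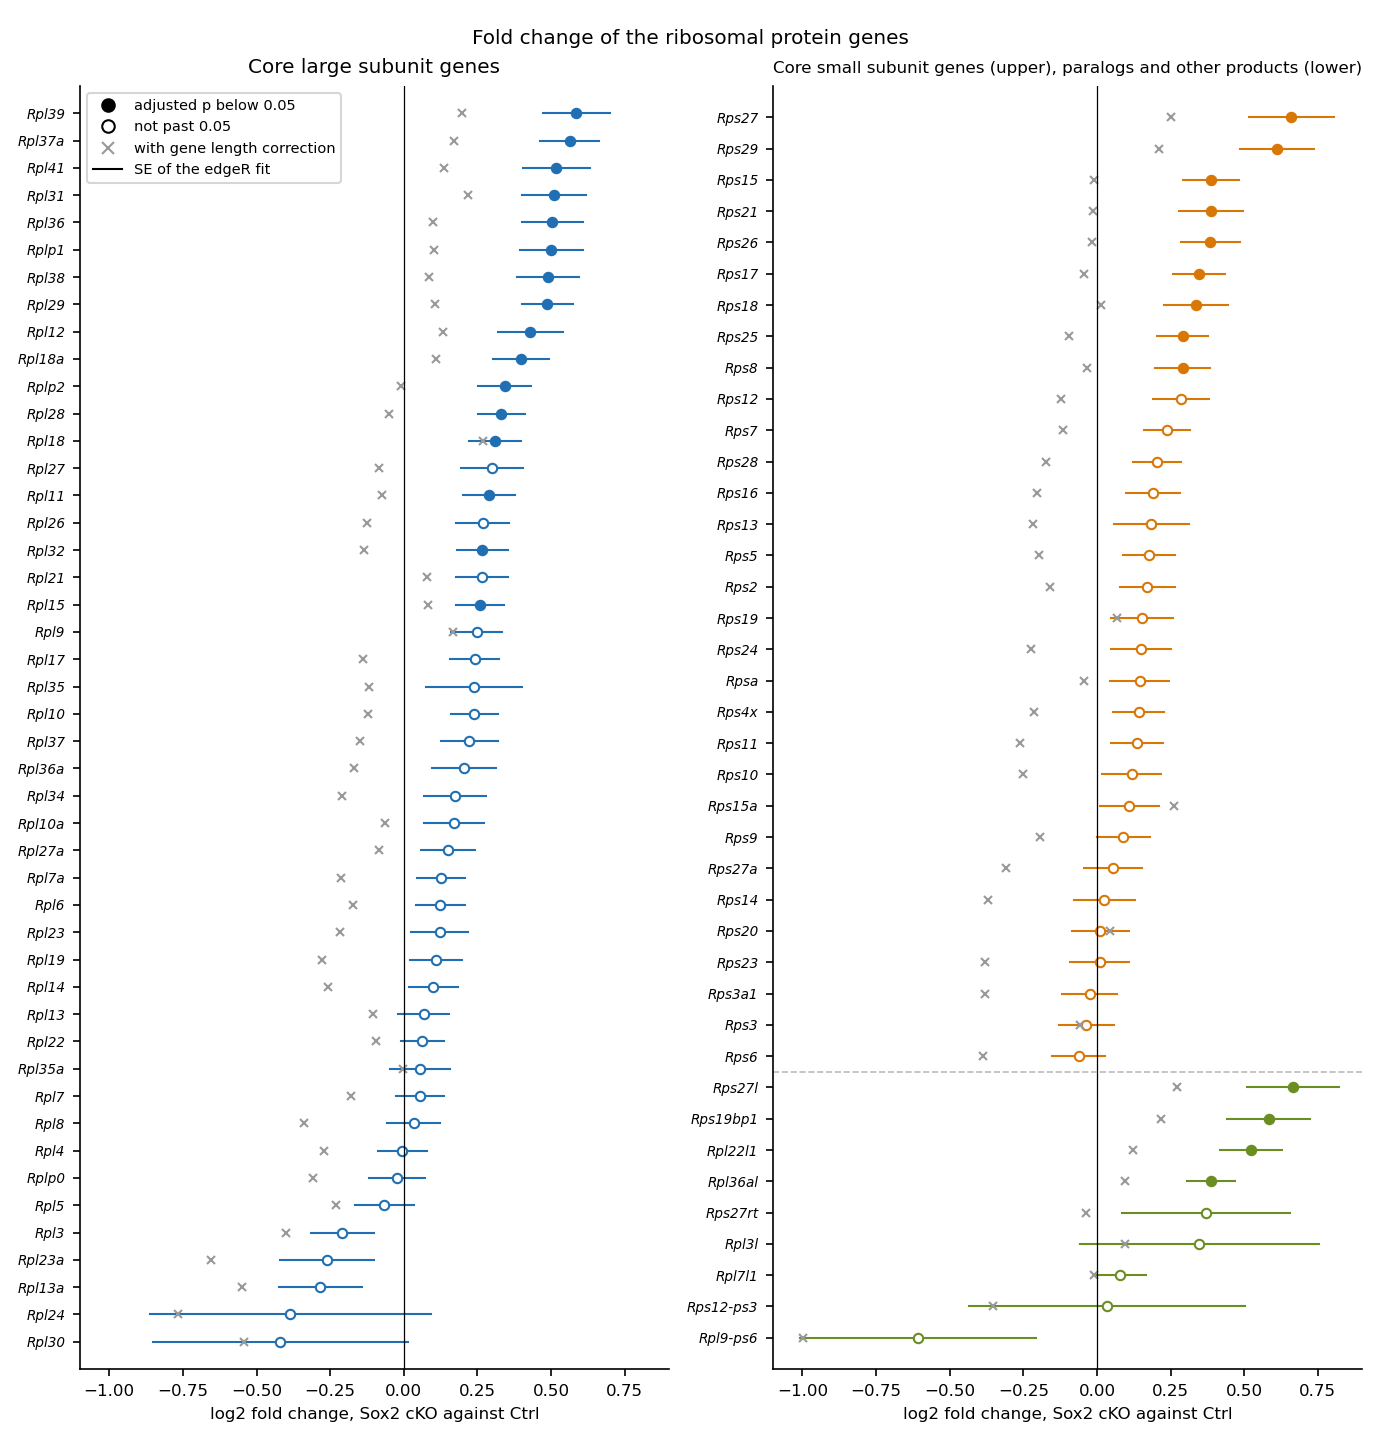
Log2 fold change of the 86 members, Sox2 cKO against Ctrl (horizontal axis), 1 gene per line, with core large subunit genes in blue, core small subunit genes in orange and the other 9 members in green; circles are edgeR values with their SE, filled where the adjusted p was below 0.05, and crosses are values with the length correction. 74 circles lie right of 0, and 61 crosses lie left of it, so the direction of the family turned with the length correction.

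Among the core small subunit genes the largest rises were those of Rps27 and Rps29, which encode short zinc-binding proteins. Rps27 (ENSMUSG00000090733, chr3:90212522-90213651) was at 270, 175 and 231 CPM in Ctrl libraries 2, 4 and 6 and at 396, 329 and 342 CPM in Sox2 cKO libraries 1, 3 and 5. The groups did not overlap, with Ctrl library 4 lowest and Sox2 cKO library 1 highest. Rps27 had a log2 fold change of 0.66 ± 0.14 (SE; edgeR adjusted p = 0.0151), and 0.25 with the length correction (edgeR adjusted p = 0.134). Rps29 (ENSMUSG00000034892, chr12:69157722-69159186) was at 326, 235 and 304 CPM in Ctrl libraries 2, 4 and 6 and at 488, 406 and 429 CPM in Sox2 cKO libraries 1, 3 and 5. Again the groups were apart and the same libraries were lowest and highest. Its log2 fold change was 0.61 ± 0.13 (edgeR adjusted p = 0.0137), and 0.21 with the length correction (edgeR adjusted p = 0.118). The adjusted p of edgeR was 0.065 for both genes without Ctrl library 4, and without Sox2 cKO library 1 it was 0.0742 for Rps27 and 0.0672 for Rps29. Rps21, one of the most abundant members, was at 342, 271 and 362 CPM in Ctrl and 423, 409 and 442 CPM in Sox2 cKO, with no overlap. Its log2 fold change of 0.39 (edgeR adjusted p = 0.0308) became -0.01 with the length correction (edgeR adjusted p = 0.938), and its call ended without Ctrl library 4 (edgeR adjusted p = 0.111), Sox2 cKO library 1 (0.0943), Sox2 cKO library 3 (0.0736) or Sox2 cKO library 5 (0.0858).

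The 31 core small subunit genes included 9 called higher (29.0%), beside 12.2% of all genes tested. Of these 31 genes, 28 had a positive log2 fold change under TMM scaling. The median was 0.17 and became -0.12 with the length correction. Their values ran from -0.06 for Rps6, the substrate of the S6 kinases, to 0.66 for Rps27. Rps6 was named after its value was seen. It was at 296, 286 and 337 CPM in Ctrl and 303, 278 and 299 CPM in Sox2 cKO. Its groups overlapped, and it was called lower with the length correction (log2 fold change -0.39; edgeR adjusted p = 0.0274).

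Among the core large subunit genes the largest rises were those of Rpl39, whose short protein lines the exit tunnel, and of Rpl37a, a zinc-binding protein. Rpl39 (ENSMUSG00000079641, chrX:37082520-37085402) was at 114, 83.1 and 95.6 CPM in Ctrl libraries 2, 4 and 6 and at 158, 140 and 142 CPM in Sox2 cKO libraries 1, 3 and 5. The groups did not overlap, and Ctrl library 4 was again lowest. Rpl39 had a log2 fold change of 0.59 ± 0.11 (SE; edgeR adjusted p = 0.013), 0.20 with the length correction and -0.03 with a correction for coding length. Rpl37a (ENSMUSG00000046330, chr1:72711290-72713813) was at 239, 186 and 219 CPM in Ctrl libraries and at 326, 308 and 319 CPM in Sox2 cKO libraries. Its Sox2 cKO libraries lay close together, and the lowest of them was above every Ctrl library. For Rpl37a the log2 fold change was 0.56 ± 0.10 (edgeR adjusted p = 0.0125), and 0.17 with the length correction. For Rpl39 and Rpl37a the edgeR adjusted p was 0.065 without Ctrl library 4, and without Sox2 cKO library 1 it was 0.0661 and 0.0656.

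The stalk that recruits elongation factors to the large subunit is formed by Rplp0, which anchors it, and by the acidic proteins Rplp1 and Rplp2. Rplp1 was at 442, 340 and 428 CPM in Ctrl libraries 2, 4 and 6 and at 596, 542 and 575 CPM in Sox2 cKO libraries 1, 3 and 5. Rplp2 was at 134, 125 and 151 CPM in Ctrl and 179, 170 and 171 CPM in Sox2 cKO. Both were higher in every Sox2 cKO library than in every Ctrl library. Log2 fold changes were 0.50 ± 0.11 for Rplp1 and 0.34 ± 0.09 for Rplp2 (edgeR adjusted p = 0.0146 and 0.0239), and 0.10 and -0.01 with the length correction. Rplp0 was at 238, 263 and 275 CPM in Ctrl and 277, 229 and 257 CPM in Sox2 cKO, with overlapping groups and a log2 fold change of -0.02 (edgeR adjusted p = 0.881). The coding length was 342 bases for Rplp1, 345 for Rplp2 and 951 for Rplp0. The calls of Rplp1 and Rplp2 ended without Ctrl library 4 (edgeR adjusted p = 0.0669 and 0.112) and without Sox2 cKO library 1 (0.0686 and 0.0865), and that of Rplp2 also without Sox2 cKO library 3 (0.0669) or library 5 (0.0544). Rplp0 and Rplp2 were picked for the stalk after their values were seen.

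**Figure D2:**
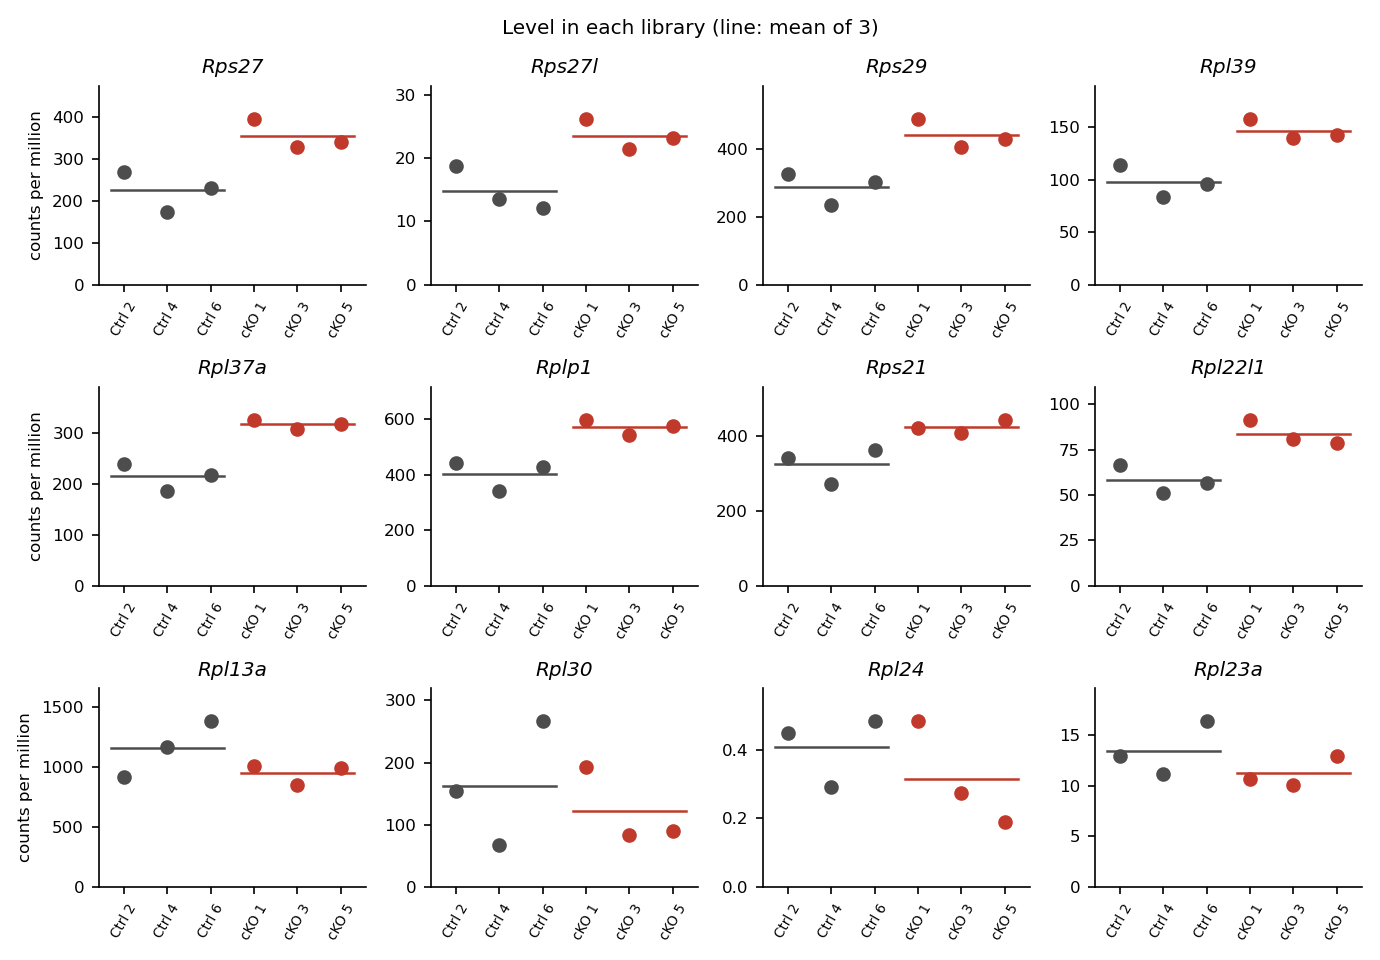
CPM (vertical axis, from 0) of 12 members in each of the 6 libraries, Ctrl in grey and Sox2 cKO in red, with a line at the mean of each group. The first 8 panels show members called higher under TMM scaling, whose groups are apart there (none of these 8 was called with the length correction), and the last 4 show members with a negative log2 fold change, whose groups overlap.

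The 46 core large subunit genes included 16 called higher (34.8%), beside 12.2% of all genes tested. Of these 46 genes, 38 had a positive log2 fold change under TMM scaling. The median was 0.23 and became -0.11 with the length correction. Rpl18 was the only member called higher with the length correction (log2 fold change 0.27, edgeR adjusted p = 0.0462). It was at 132, 128 and 132 CPM in Ctrl and 181, 152 and 154 CPM in Sox2 cKO, and its groups did not overlap. Its value under TMM scaling was 0.31 ± 0.09 (edgeR adjusted p = 0.0314), with a call that remained only without Ctrl library 2 (edgeR adjusted p = 0.0254) among the 6 fits that left out a library. Rpl41, which encodes the shortest ribosomal protein with a coding length of 75 bases, was at 251, 187 and 231 CPM in Ctrl and 344, 303 and 314 CPM in Sox2 cKO. It was called higher under TMM scaling (log2 fold change 0.52, edgeR adjusted p = 0.0147) and lower with the correction for coding length (-0.31, edgeR adjusted p = 0.033). Its first call ended without Ctrl library 4 (edgeR adjusted p = 0.0688) or Sox2 cKO library 1 (0.0713). Rpl18 and Rpl41 were named after their values were seen.

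Of the 11 core members with a negative log2 fold change, 8 were large subunit genes. Rpl13a, the member with the most counts and the host of 4 annotated small nucleolar RNA genes (chr7:45125558-45128761), was at 913, 1167 and 1381 CPM in Ctrl libraries 2, 4 and 6 and at 1006, 847 and 991 CPM in Sox2 cKO libraries 1, 3 and 5. The groups overlapped through Ctrl library 2, while Ctrl libraries 4 and 6 were above all Sox2 cKO libraries. Rpl13a had a log2 fold change of -0.28 ± 0.14 (edgeR adjusted p = 0.161), -0.43 without Ctrl library 2 (0.0107) and -0.55 with the length correction (0.0457). Omitting each library in turn moved the Rpl13a value to between -0.43 and -0.13, and only the omission of Ctrl library 2 gave a call. Rpl3, a protein near the catalytic centre, was at 491, 570 and 637 CPM in Ctrl and 520, 457 and 493 CPM in Sox2 cKO. Here too Ctrl libraries 4 and 6 were above all Sox2 cKO libraries and Ctrl library 2 was not. Its log2 fold change was -0.21 (edgeR adjusted p = 0.171), -0.30 without Ctrl library 2 (0.0216) and -0.40 with the length correction (0.0433). For Rpl3 the fits that left out a library gave -0.30 to -0.11, again with a call only without Ctrl library 2.

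Rpl30 differed between libraries of the same group more than any of these. It was at 154, 67.8 and 267 CPM in Ctrl libraries 2, 4 and 6 and at 194, 83.0 and 89.0 CPM in Sox2 cKO libraries 1, 3 and 5. Ctrl libraries 2 and 6 and Sox2 cKO library 1 were high, and Ctrl library 4 and Sox2 cKO libraries 3 and 5 were low. The log2 fold change was -0.42 ± 0.43 (edgeR adjusted p = 0.5), and it was -0.92 without Sox2 cKO library 1, -0.79 without Ctrl library 4 and 0.14 without Ctrl library 6.

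Some members had a mean FPKM far below the median. Mean FPKM, the deposited level scaled by gene length and library size, had a median of 254 over core members and was highest for Rps27 at 1150, Rplp1 at 990, Rps29 at 798 and Rps21 at 782. It was lowest for Rpl24 at 0.533, Rpl35 at 11.6, Rpl23a at 20.9 and Rps15a at 34.6. Rps15a was at 153, 171 and 188 CPM in Ctrl and 177, 171 and 204 CPM in Sox2 cKO. The gene length behind its FPKM was 5130 bases, against a median of 930 over core members. Of all 50-base words in the protein-coding transcripts of Rpl24, 81.7% also occur in a transcript of another gene, and the share was 82.6% for Rpl23a, 40.1% for Rpl35 and 5.35% for Rps15a. Across the 77 core members this share and mean FPKM had a Spearman rho of 0.15, so shared words were not rare among abundant members (84.6% in Rps6). How reads that fit several places were counted is not stated, so the level of a member with many shared words is uncertain. Rpl24 was counted 10, 7 and 10 times in Ctrl and 11, 8 and 5 times in Sox2 cKO (log2 fold change -0.39 ± 0.48, edgeR adjusted p = 0.579). Rpl23a was at 12.9, 11.1 and 16.4 CPM in Ctrl and 10.7, 10.1 and 12.9 CPM in Sox2 cKO. Its groups overlapped, with a log2 fold change of -0.26 (edgeR adjusted p = 0.247), and it was called lower with the length correction (-0.66, edgeR adjusted p = 0.029). Leaving out a library moved the TMM value of Rpl23a to between -0.38 and -0.10, with 0 calls. Rpl35 had a log2 fold change of 0.24 and Rps15a of 0.11 (edgeR adjusted p = 0.298 and 0.446), and their groups overlapped.

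The paralogs and other products held 4 members of 9 called higher (44.4%), beside 12.2% of all genes tested. Rps27l, a paralog of Rps27 that p53 induces, was at 18.8, 13.6 and 12.2 CPM in Ctrl libraries 2, 4 and 6 and at 26.2, 21.4 and 23.2 CPM in Sox2 cKO libraries 1, 3 and 5. Rps19bp1, a nuclear protein that binds Rps19 and SIRT1, was at 17.2, 13.1 and 12.1 CPM in Ctrl and 23.3, 19.3 and 21.04 CPM in Sox2 cKO. In both, every Sox2 cKO library was above every Ctrl library, and Ctrl library 2 was the highest control. Log2 fold changes were 0.67 ± 0.16 for Rps27l, the largest of all members, and 0.58 ± 0.14 for Rps19bp1 (edgeR adjusted p = 0.0177 and 0.0191), and 0.27 and 0.22 with the length correction (0.164 and 0.195). Rpl22l1, the paralog of Rpl22, was at 66.6, 51.2 and 56.8 CPM in Ctrl and 91.2, 80.9 and 78.7 CPM in Sox2 cKO (log2 fold change 0.52, edgeR adjusted p = 0.0134). Rpl36al, a paralog of Rpl36a, was at 75.1, 67.2 and 74.3 CPM in Ctrl and 99.7, 87.9 and 95.9 CPM in Sox2 cKO (log2 fold change 0.39, edgeR adjusted p = 0.014). The groups of both genes were apart, and with the length correction their values were 0.12 and 0.10 (edgeR adjusted p = 0.257 and 0.327). All 4 calls ended without Ctrl library 4 or without Sox2 cKO library 1, where the edgeR adjusted p ran from 0.0667 to 0.0871, and those of Rps27l and Rps19bp1 also without Ctrl library 6 (0.0572 and 0.0644).

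The other 5 members outside the core were not called. Rpl7l1, which acts in large subunit assembly, had a log2 fold change of 0.08 (edgeR adjusted p = 0.54). Rpl3l, the striated muscle paralog of Rpl3, was at 0.852, 0.416 and 0.531 CPM in Ctrl and 0.571, 0.614 and 1.10 CPM in Sox2 cKO (log2 fold change 0.35 ± 0.41). Leaving out a library moved the value of Rpl3l to between -0.01 and 0.69. The retrocopy Rps27rt was at 1.30, 0.873 and 1.45 CPM in Ctrl and 1.89, 1.43 and 1.36 CPM in Sox2 cKO, and it shares 91.1% of its words with other genes. Rps12-ps3 shares all of its words and had a log2 fold change of 0.03 ± 0.47 at 62 counts. Rpl9-ps6 shares 89.2%, was at 0.538, 1.08 and 1.11 CPM in Ctrl and 0.395, 0.546 and 0.831 CPM in Sox2 cKO, and had the lowest value of all members (-0.61 ± 0.40, edgeR adjusted p = 0.284). Groups overlapped in all 5.

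The difference between large and small subunit genes depended on the correction. The median log2 fold change of core large subunit genes exceeded that of core small subunit genes by 0.06, while the same difference between medians varied between libraries of a group by 0.0373 (SD), and no test was made over the members. The difference was 0.0089 with the length correction, -0.0046 with a correction for the length of the principal transcript and 0.0749 with a correction for coding length. Leaving out Sox2 cKO library 3 or 5 gave 0.0298 and 0.0334, leaving out Ctrl library 4 gave 0.0391, and leaving out Ctrl library 2 gave 0.0752. Summed CPM of core large subunit genes was 10666, 10184 and 11933 for Ctrl libraries 2, 4 and 6, and it was 12925, 11567 and 12190 for Sox2 cKO libraries 1, 3 and 5. Summed CPM of core small subunit genes was 7152, 6715 and 7820 in Ctrl and 8838, 7788 and 8223 in Sox2 cKO. Both sums overlapped between groups, through Ctrl library 6 and Sox2 cKO library 3. All 86 members together took 1.79%, 1.64% and 1.88% of the counts in Ctrl and 2.34%, 2.03% and 2.09% in Sox2 cKO, with no overlap. This share was not corrected for gene length.

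The ratio of the sums pointed the other way from the medians, and its difference rested on 1 gene. For Ctrl libraries 2, 4 and 6 the large to small ratio was 1.4914, 1.5167 and 1.5259, and for Sox2 cKO libraries 1, 3 and 5 it was 1.4624, 1.4852 and 1.4825. All 3 Sox2 cKO libraries were below all 3 Ctrl libraries, at 1.51 ± 0.0179 against 1.48 ± 0.0124 (mean ± SD, n = 3). Rpl13a made up 8.56%, 11.5% and 11.6% of the large subunit sum in Ctrl and 7.78%, 7.32% and 8.13% in Sox2 cKO. Without Rpl13a, a choice made after its values were seen, the ratio was 1.36, 1.34 and 1.35 in Ctrl and 1.35, 1.38 and 1.36 in Sox2 cKO, and the groups overlapped. On FPKM, with Rpl13a, the mean ratio was 1.17 ± 0.0186 in Ctrl and 1.14 ± 0.0128 in Sox2 cKO (SD, n = 3), and the highest Sox2 cKO library was 0.00133 below the lowest Ctrl library.

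**Figure D3:**
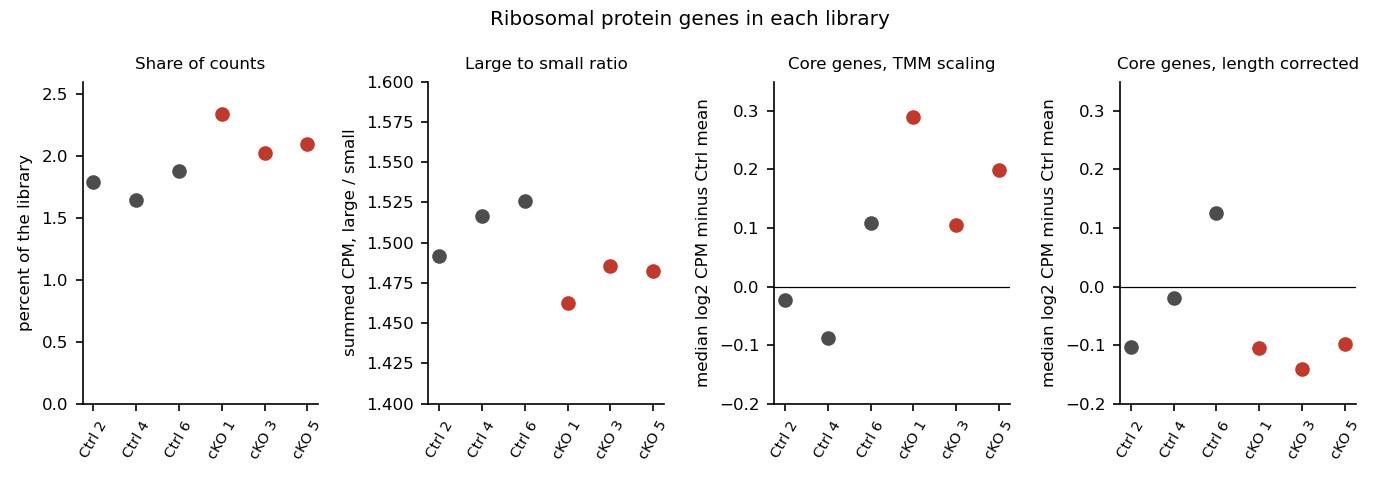
Measures in each of the 6 libraries, Ctrl in grey and Sox2 cKO in red: share of counts in the 86 members (percent, axis from 0), ratio of summed core large to small subunit CPM (axis from 1.4), and the median over core genes of log2 CPM minus the Ctrl mean, under TMM scaling and with the length correction. Under TMM scaling the medians were -0.09 to 0.11 in Ctrl and 0.10 to 0.29 in Sox2 cKO, and with the length correction they were -0.10 to 0.13 and -0.14 to -0.10, so the direction turned.

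The size of the rise followed length among the core members. Across the 77 core genes the log2 fold change and the coding length had a Spearman rho of -0.54, and the rho was -0.55 across the 46 large and -0.51 across the 31 small subunit genes. These genes share the same 6 libraries and are not independent, and across 14642 tested genes with a coding sequence the rho was -0.46. Of the 26 core genes with the shortest coding sequence, 75 to 405 bases, 14 were called higher (53.8%) and the median was 0.29. Of the next 26, 9 were called higher (34.6%) with a median of 0.24. Of the 25 longest, 582 to 1257 bases, 2 were called higher (8%) with a median of 0.10. Over all genes tested 12.2% were called higher, a larger share than that of the 25 longest. The length correction turned all 3 medians negative, to -0.01, -0.08 and -0.20, and it left a rho with coding length of -0.44. With a correction for coding length, added after the data were seen, the medians were -0.08, -0.04 and -0.09, the rho was 0.07, and 1 member was called higher (Rpl29) and 4 lower (Rpl13a, Rpl22, Rpl23a and Rpl41), beside 1140 higher and 1522 lower of all 14642 genes tested, a larger share in both directions. These 5 were named after their values were seen.

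The trend with gene length differed between libraries and between the groups. Across all tested genes, the rho between gene length and log2 CPM minus the Ctrl mean was -0.36, 0.29 and 0.18 for Ctrl libraries 2, 4 and 6, and it was -0.49, -0.42 and -0.46 for Sox2 cKO libraries 1, 3 and 5. All 3 Sox2 cKO values were below all 3 Ctrl values, of which only that of Ctrl library 2 was also negative. Each value is taken against the mean of the Ctrl libraries, so the signs of the Ctrl values are not independent of each other. The median over core members of the same measure was -0.02, -0.09 and 0.11 in Ctrl and 0.29, 0.10 and 0.20 in Sox2 cKO, so Ctrl library 6 lay above Sox2 cKO library 3. With the length correction it was -0.10, -0.02 and 0.13 in Ctrl and -0.11, -0.14 and -0.10 in Sox2 cKO, where Ctrl library 2 lay between Sox2 cKO libraries 1 and 5. RNA integrity per library is not in the labels, and its part in the trend was not tested.

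**Figure D4:**
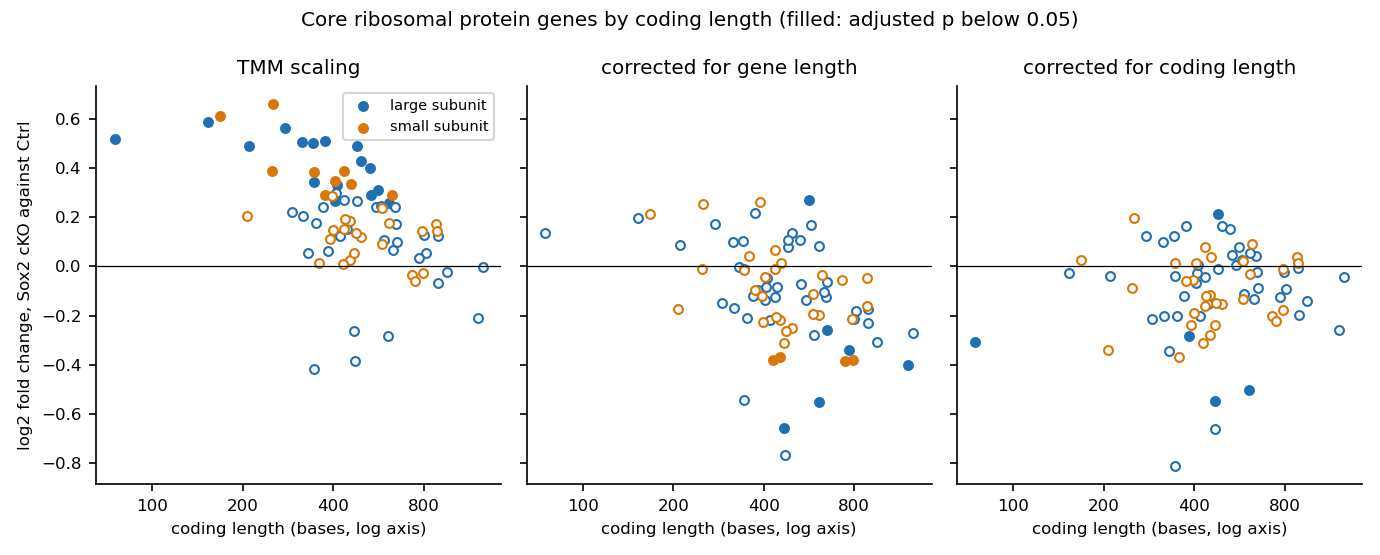
Log2 fold change, Sox2 cKO against Ctrl, of the 77 core genes (vertical axis) against coding length in bases (log axis), under TMM scaling, with the correction for gene length and with the correction for coding length; large subunit genes are blue, small subunit genes orange, and filled points had an adjusted p below 0.05. The slope of the first panel (rho -0.54) is absent in the last (rho 0.07), and most values are positive in the first panel and negative in the others.

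Many ribosomal protein genes carry small nucleolar RNA genes in their introns, and 30 core members did so in the annotation. Of these, 6 were called higher (20%) with a median of 0.15, against 19 of the 47 without such a gene (40.4%) and a median of 0.24. Over all genes tested 12.2% were called higher. Hosts were also longer, with a median gene length of 1107 against 837 bases. With the length correction the medians were -0.14 and -0.08, and no test was made between them.

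The 4 X-linked members were Rpl39, Rpl10, Rpl36a and Rps4x, with log2 fold changes of 0.59, 0.24, 0.20 and 0.14. Only Rpl39 was called by edgeR under TMM scaling, as given above with the libraries that end its call, and Rpl10 was called in 4 of 14 alternatives. Rpl10, near the peptidyl transferase centre, was at 188, 193 and 206 CPM in Ctrl and 242, 224 and 227 CPM in Sox2 cKO, with groups apart (edgeR adjusted p = 0.0517). With the length correction Rpl10, Rpl36a and Rps4x were at -0.12, -0.17 and -0.21 and were not called. Sex-linked transcripts of 1 of the 6 libraries did not match the sexes stated for its group, and the part of sex in X-linked values was not tested.

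Fau and Rack1 encode ribosomal proteins outside the symbol rule, and edgeR called 0 of these 2, with 2 higher at an unadjusted p under 0.05 and 2 called higher by DESeq2. Fau, a ubiquitin-like protein fused to the small subunit protein eS30, was at 158, 152 and 168 CPM in Ctrl and 224, 176 and 189 CPM in Sox2 cKO. Rack1, a scaffold on the head of the small subunit, was at 125, 117 and 130 CPM in Ctrl and 161, 146 and 139 CPM in Sox2 cKO. Groups were apart in both. Their log2 fold changes were 0.30 and 0.26 (edgeR adjusted p = 0.0524 and 0.0521), and with the length correction they were -0.09 and 0.36 (0.48 and 0.028). With the correction for coding length they were -0.04 and 0.14 (edgeR adjusted p = 0.786 and 0.202). Neither gene was called with that correction or with the one for principal transcript length, so the call of Rack1 depended on the length used.

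Ribosomal protein genes have many processed copies, and 136 pseudogenes with such a symbol had at least 1 count. Of these, 24 were tested, with 0 called higher and 1 lower by edgeR, Rpl19-ps11 (log2 fold change -0.79, edgeR adjusted p = 0.0346). By the same test 12.2% of all genes were called higher and 12.4% lower. Rps13-ps1 (processed pseudogene, chr8:87047689-87048226) was counted 417, 4 and 13 times in Ctrl libraries 2, 4 and 6 and 595, 731 and 8 times in Sox2 cKO libraries 1, 3 and 5. Rps15a-ps7 (processed pseudogene, chr2:152185291-152185682) was counted 56, 4 and 2 times in Ctrl and 66, 88 and 4 times in Sox2 cKO. Both were high in libraries 1, 2 and 3 and near 0 in libraries 4, 5 and 6, across the genotypes. Rps13 itself was at 81.3, 93.3 and 109 CPM in Ctrl and 99.0, 97.4 and 126 CPM in Sox2 cKO, with overlapping groups (log2 fold change 0.18, edgeR adjusted p = 0.309). The sum of Rps13 and Rps13-ps1 was 99.996, 93.5 and 110 CPM in Ctrl and 125, 122 and 126 CPM in Sox2 cKO, where the groups were apart and the log2 ratio of their means was 0.30. The sum of Rps15a and Rps15a-ps7 was 156, 171 and 188 CPM in Ctrl and 180, 174 and 204 CPM in Sox2 cKO, and its groups overlapped. These genes were chosen after their values were seen, the sums were not tested, and whether the pseudogene reads came from the parent gene was not tested.

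**Figure D5:**
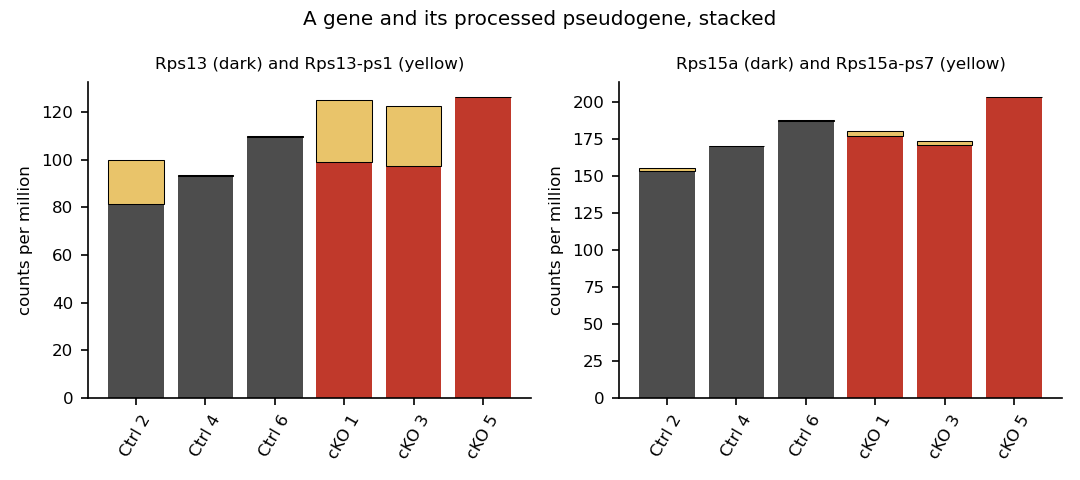
CPM of Rps13 and Rps15a in each of the 6 libraries (bars from 0, Ctrl grey, Sox2 cKO red) with the CPM of the processed pseudogene stacked on top in yellow. Rps13-ps1 adds 18.7, 26.1 and 24.9 CPM in libraries 2, 1 and 3 and under 1 CPM in the other 3.

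Lists of genes that make and use ribosomes held calls in both directions, as did all genes, of which 12.2% were called higher and 12.4% lower. Of 46 tested ribosome biogenesis factors, 11 were called higher and 3 lower, or 5 and 0 with the length correction, and the list had a median of 0.04 on the log2 scale. The largest rise was that of Nop10, a protein of the box H/ACA particles that modify ribosomal RNA, at 25.3, 17.4 and 14.5 CPM in Ctrl and 48.0, 45.3 and 44.9 CPM in Sox2 cKO, with groups apart. Its log2 fold change was 1.27 ± 0.17 (edgeR adjusted p = 0.0102) and 0.96 with the length correction (0.0144). Gnl3, a nucleolar GTPase, followed at 0.72 (edgeR adjusted p = 0.0125), and it was 0.54 with the length correction (0.0193). The largest falls were those of Ncl, or nucleolin, at -0.44 and Rrp12 at -0.35, and neither was called with the length correction. Of 15 tested genes of the RNA polymerase I machinery, 3 were called higher and 1 lower. Znrd1 (0.84), Taf1d (0.61) and Polr1d (0.43) rose, Polr1a (-0.44) fell, and 0 were called by edgeR with the length correction (3 higher and 2 lower at an unadjusted p under 0.05). Leaving out Ctrl library 4 or Sox2 cKO library 1 gave 0 edgeR calls in either list, while DESeq2 on all 6 libraries called 8 higher and 4 lower of the first and 3 higher and 2 lower of the second. At an unadjusted p under 0.05, 11 higher and 2 lower of the biogenesis factors passed without Ctrl library 4, and 13 and 4 without Sox2 cKO library 1. For RNA polymerase I these counts were 4 and 2, and 3 and 2. Biogenesis calls fell to 2 higher and 0 lower without Ctrl library 6 or without Sox2 cKO library 3, and to 7 higher and 1 lower without Sox2 cKO library 5, while RNA polymerase I calls rose to 5 higher and 2 lower without Ctrl library 2.

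Of 39 initiation factors, 5 were called higher and 6 lower, with a median of 0.01, beside 12.2% of all genes called higher and 12.4% lower. Eif4ebp1, a translation repressor under mTORC1 control, had a log2 fold change of 0.81 and Eif1, a start codon selection factor, of 0.70, and Eif1 was at 236, 175 and 175 CPM in Ctrl and 329, 320 and 305 CPM in Sox2 cKO. Eif4ebp2 at -0.61 and Eif5b at -0.51 were the largest called falls. Eif4ebp1 was at 0.47 and Eif5b at -0.19 with the length correction, and neither was called (edgeR adjusted p = 0.139 and 0.204), while Eif1 at 0.43 and Eif4ebp2 at -0.81 were (0.0194 and 0.0347), among 3 initiation factors called higher and 7 lower. The 13 genes called elongation factors here included the release factors Gspt1 and Etf1 and the kinase Eef2k. Of these 13, 0 were called higher and 2 lower by edgeR, with 2 higher at an unadjusted p under 0.05. DESeq2 called 0 higher and limma on FPKM called 2 higher. Eef2, the translocase, was at 1445, 1857 and 1909 CPM in Ctrl and 1192, 1162 and 1322 CPM in Sox2 cKO, with groups apart. Its log2 fold change was -0.50 ± 0.12 (edgeR adjusted p = 0.0169) and -0.53 with the length correction (0.0228). Gspt1, a release factor, was at -0.34 and was not called with the length correction. Without Ctrl library 4 or without Sox2 cKO library 1, edgeR called 0 genes of these lists, with 5 higher and 6 lower initiation factors, or 7 and 6, at an unadjusted p under 0.05, and 0 higher and 3 lower elongation factors in each. DESeq2 on all libraries called 6 higher and 8 lower initiation factors and 3 lower elongation factors. Without Ctrl library 6 or without Sox2 cKO library 3 edgeR called 2 initiation factors higher and 0 lower, and 0 elongation factors. Without Ctrl library 2 it called 10 higher and 11 lower initiation factors and 1 higher and 4 lower elongation factors, and without Sox2 cKO library 5 it called 2 higher and 4 lower initiation factors.

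Of 18 genes of mTORC1 and of the translational control of ribosomal protein mRNAs, 2 were called higher and 6 lower, with a median of -0.05. Over all genes 12.2% were called higher and 12.4% lower. Larp1, which binds the oligopyrimidine tract, was at 189, 228 and 235 CPM in Ctrl and 143, 158 and 161 CPM in Sox2 cKO. Rps6kb2, an S6 kinase, was at 13.0, 9.06 and 7.68 CPM in Ctrl and 22.0, 18.9 and 17.8 CPM in Sox2 cKO. The groups of both were apart. Log2 fold changes were -0.50 ± 0.10 for Larp1 (edgeR adjusted p = 0.0137) and 0.98 ± 0.18 for Rps6kb2 (0.0126), and -0.24 and 0.83 with the length correction (0.0404 and 0.0193). Tsc2, of the complex that restrains mTORC1, was at -0.46 and Rheb, its GTPase target, at 0.24. With the length correction 2 genes of the list were called higher and 1 lower, beside 6.08% and 6.99% of all genes. Of 7 nascent chain factors, Btf3 was called higher (0.36) and Nacad lower (-0.34), and with the length correction neither was called while 1 other gene passed in each direction. In the fits without Ctrl library 4 or Sox2 cKO library 1, edgeR called 0 genes of both lists, with 3 higher and 7 lower mTORC1 genes and 1 higher and 1 lower nascent chain factor at an unadjusted p under 0.05 in each. DESeq2 on all libraries called 2 higher and 6 lower, and 1 and 1. Without Ctrl library 6 edgeR called 1 higher and 2 lower mTORC1 genes, without Sox2 cKO library 3 it called 1 and 3, and without Sox2 cKO library 5 it called 1 and 6. For the nascent chain factors edgeR gave 0 calls in each of these 3 fits, with 1 higher and 1 lower at an unadjusted p under 0.05.

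Marker genes of several cell types differed between the groups, and their part in the ribosomal protein values was not tested. Beside the marker counts here and in the next paragraph, 12.2% of all genes were called higher and 12.4% lower. With the length correction these shares were 6.08% and 6.99%. Of 8 astrocyte genes, 0 were called higher and 5 lower, and their summed level was 5914, 6654 and 7876 CPM in Ctrl libraries 2, 4 and 6 and 4024, 4103 and 4193 CPM in Sox2 cKO libraries 1, 3 and 5, with Gfap the highest by FPKM. All 4 oligodendrocyte precursor genes were measured, 3 were called lower, and the sum was 191, 193 and 205 CPM in Ctrl and 137, 146 and 165 CPM in Sox2 cKO. Olig2, the highest by FPKM, was the gene not called (log2 fold change 0.05, edgeR adjusted p = 0.703). All 6 neutrophil genes were called higher, with a sum of 19.7, 14.1 and 12.3 CPM in Ctrl and 83.8, 78.8 and 23.3 CPM in Sox2 cKO and S100a8 the highest by FPKM. Groups were apart for these 3 sums, and Sox2 cKO library 5 lay nearest to Ctrl for the neutrophil genes. That library was below Ctrl library 2 in S100a8, Ltf and Lcn2 and above it in S100a9, Ngp and Camp. Leaving out Ctrl library 4, edgeR called 1 astrocyte gene and 0 genes of the other lists, and without Sox2 cKO library 1 it called 0 of all 3. At an unadjusted p under 0.05, 5 and 6 astrocyte genes were lower in these 2 fits, 3 precursor genes were lower in each and 6 neutrophil genes higher in each, and DESeq2 on all libraries called 5, 3 and 6. Taking out the length trend left 2 astrocyte genes and 1 precursor gene called lower and 4 neutrophil genes called higher. Without Ctrl library 6 the calls were 3 astrocyte, 1 precursor and 1 neutrophil gene, and without Sox2 cKO library 3 they were 4, 1 and 2.

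For the other sets edgeR called few genes. Neuronal genes had 1 of 6 called higher and ependymal genes 1 of 4 called lower. Skeletal muscle genes had 1 of 5 called higher, with a sum of 12.2, 6.61 and 4.83 CPM in Ctrl and 27.8, 4.30 and 62.6 CPM in Sox2 cKO, where libraries 1 and 5 were high and library 3 was not. DESeq2, limma on FPKM and the length correction called 0 muscle genes, and edgeR with no filter on low counts called 4. Of the leave-one-library-out fits, only that without Ctrl library 2 kept the neuronal and ependymal calls, and there edgeR called 2 neuronal genes and 1 ependymal gene, and muscle calls rose to 5 without Sox2 cKO library 3 and were otherwise 1 without Ctrl library 2 and 0 without the others. Oligodendrocyte, microglia, endothelial, Schwann cell, meningeal fibroblast, red blood cell and lymphocyte genes had 0 called in either direction by edgeR under TMM scaling. At an unadjusted p under 0.05 these 7 sets held 1, 3, 1, 1, 0, 0 and 0 genes, and DESeq2 called 2 oligodendrocyte and 2 microglia genes and 0 of the others, and limma on FPKM called 1 microglia gene. Leaving out Ctrl library 2 gave 1 or 2 calls each in the oligodendrocyte, microglia, endothelial, Schwann cell and red blood cell sets. Leaving out Ctrl library 6 gave 2 meningeal fibroblast calls and 1 red blood cell call, and leaving out Sox2 cKO library 5 gave 1 endothelial call. With the length correction edgeR called 1 oligodendrocyte and 1 microglia gene lower. With the correction for coding length it called 3 oligodendrocyte genes and 1 microglia gene lower and 1 endothelial gene higher. Only 2 of the 6 lymphocyte genes passed the expression filter.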

How the data were processed

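The deposited counts (HTSeq 0.6.1 on STAR 2.5 alignments to mm10) and the deposited FPKM per gene, both made by the authors, were read for 6 libraries, 3 per group. Columns were assigned to groups by the last digit of their name, checked against Sox2. Symbols, coordinates, principal transcripts and coding lengths came from GENCODE M21 (34490 of 35275 identifiers matched), and promoter sequences from RefSeq GRCm38.p6. Sox2 cKO was compared with Ctrl over all genes with edgeR 4.0.16 (filterByExpr, TMM, quasi-likelihood test, R 4.3.3), with Benjamini-Hochberg adjustment over 16137 genes and a threshold of 0.05. Alternatives were DESeq2 1.42.0, upper quartile factors, no filter on low counts, limma 3.58.1 on log2(FPKM + 1) and log2(FPKM + 0.1) where the mean FPKM reached 0.5, a lowess length correction (span 0.3) with gene length from the deposited counts and FPKM, and leaving out each library. Corrections for principal transcript and coding length were added after seeing the data. The model was tested on simulated data, and no result of that test is given here. An exact permutation test of 3 against 3 cannot go below 0.1 and was not used. Members and lists were chosen with earlier results of these data known, so no test was made over the members and no p was adjusted over them alone.

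Genes were named by rule: Sox2, the 6 largest rises and 6 largest falls, the 4 highest and 4 lowest core members by FPKM, every member outside the core, the X-linked members, Fau and Rack1, and for other lists the 2 largest called rises and falls. The results of 1 gene that the rule takes are not reported. Others were named after their values were seen. Shared words were 50-base words of protein-coding transcripts. Python 3.11.15, pandas 2.3.3, SciPy 1.17.1 and matplotlib 3.10.9 were used for tables and figures.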

Additional observations from a re-analysis of the deposited data

How the results depend on the processing

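The 29 calls higher became 1 with the correction for gene length, for principal transcript length and for coding length, while calls lower rose from 0 to 9, 10 and 4, beside 1128 of 16137, 1047 of 16039 and 1522 of 14642 genes called lower over all genes, of which the last is a larger share than that of the members; DESeq2 called 0 lower, with 2 lower at an unadjusted p under 0.05. The median of core large subunit genes moved from 0.23 to 0.33 with log2(FPKM + 0.1), where the median of all genes moved to 0.11, and turned to -0.1121, -0.1429 and -0.0422 under the 3 corrections. The median of core small subunit genes turned from 0.17 to -0.12, -0.14 and -0.12. The difference between these medians fell from 0.0597 to 0.0089 with the correction for gene length, turned to -0.0046 with that for principal transcript length, and was 0.0749 with that for coding length. Leaving out each library gave 0 to 35 calls higher and 0 to 2 lower, medians of 0.17 to 0.28 for large and 0.12 to 0.23 for small subunit genes, and differences of 0.0298 to 0.0752. Of 388 alternative values of the named genes, 281 kept direction and side of the threshold, 48 lost a call, 25 gained one, and 28 changed sign without a call. The remaining 6 turned a called rise into a negative value that was not called. Rps21 was at -0.0120 with the correction for gene length, -0.0338 for principal transcript length and -0.0879 for coding length, Rpl36al was at -0.0228 for principal transcript length and -0.0161 for coding length, and Rpl39 was at -0.0269 for coding length. The cause was not tested.

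No paired analysis was possible because the deposited columns carry no replicate numbers. With 3 libraries per group, calls rested on the spread of few animals, and Ctrl library 4 and Sox2 cKO library 1 each decided whether any member was called. The strand setting and the treatment of reads with several matches in the counting are not stated, so counts of members that overlap other genes or have near-identical copies are uncertain. Bulk RNA does not show which cells changed. The trend of the libraries with gene length differed between the groups, and its part and that of genotype cannot be told apart. Protein and translation were not measured.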
